A study of Homo sapiens with 4 samples.

Results

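The genes described here are classical cadherins and the regulators of the epithelial-mesenchymal transition (EMT), namely *CDH1*, *CDH2*, *CDH4*, *CDH11*, *SNAI1*, *SNAI2*, *TWIST1*, *ZEB1*, *ZEB2* and *VIM*. They were found by symbol among the gene probes of the arrays, where *ZEB1* stands under its older symbol TCF8 and *ZEB2* under ZFHX1B. The 10 genes had 13 probes, of 33096 gene probes on each array. The study knocked down *SOX2*, an HMG-box transcription factor of stem cells, in the established human glioblastoma line LN229, grown in culture. Cells transfected with siRNA against *SOX2* (2 arrays) were compared with cells transfected with a non-targeting siRNA (mock knockdown, 2 arrays). All 4 samples were total RNA of that line on 1-colour chemiluminescent oligonucleotide arrays, and the replicates of a group were separate transfections per the study's methods. The question asked here is whether these genes changed in level when *SOX2* was reduced.

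Cadherins are calcium-dependent adhesion proteins that bind like cadherins on neighbouring cells and hold catenins on their inner side. In an EMT, epithelial cells lose E-cadherin (*CDH1*) and gain N-cadherin (*CDH2*) and the filament protein vimentin (*VIM*). The zinc-finger proteins of the SNAIL and ZEB families and the bHLH protein TWIST1 drive this change, and those of the SNAIL and ZEB families repress *CDH1* by binding E-boxes in its promoter. Glioma cells are of neuroectodermal origin, and the same repressors are studied there for their part in invasion.

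*ZEB1* and *ZEB2* encode paralogous repressors, and their promoters are shown because *ZEB1* had the largest change in size of the measured members, although it did not pass the test, and *ZEB2* is its paralog. The 250 bases before the start site are given from RefSeq (GRCh38.p14), for the first of 7 annotated *ZEB1* starts at chr10:31318167-31318416 on the plus strand and for the single *ZEB2* start at chr2:144520120-144520369 on the minus strand. Capitals mark the E-box CAGGTG and the SOX-type motif ACAAAG, each searched on both strands as CAGGTG or CACCTG and ACAAAG or CTTTGT.
ZEB1: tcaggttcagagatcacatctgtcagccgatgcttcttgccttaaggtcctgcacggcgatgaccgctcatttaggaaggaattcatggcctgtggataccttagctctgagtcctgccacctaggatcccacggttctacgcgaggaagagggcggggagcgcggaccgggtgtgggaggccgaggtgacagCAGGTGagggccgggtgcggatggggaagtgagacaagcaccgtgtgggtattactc
ZEB2: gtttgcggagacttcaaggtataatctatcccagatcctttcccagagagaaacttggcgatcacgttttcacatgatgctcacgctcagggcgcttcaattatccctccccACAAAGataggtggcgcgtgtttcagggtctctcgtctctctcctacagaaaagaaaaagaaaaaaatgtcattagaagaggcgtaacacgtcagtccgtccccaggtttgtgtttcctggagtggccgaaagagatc
The *ZEB1* window held 1 E-box, 57 bases before the start, and the *ZEB2* window held 1 SOX-type motif, 138 bases before the start. Of the 7 *ZEB1* windows 2 held the E-box and 0 the SOX-type motif. The 2 windows of *CDH2* and the 1 window of *VIM* held neither, and of the 2 windows of *CDH4* 1 held the E-box. Windows of *CDH1*, *CDH11*, *SNAI1*, *SNAI2* and *TWIST1* were not examined. Among all 35116 annotated windows of this length, 17.5% held the E-box and 13.7% the SOX-type motif. The consensus wwTGnwTw, which the study derived from its *SOX2* binding regions, was not searched. The matches describe letters in the windows, and the arrays do not show which *ZEB1* start was used.

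Signals below are relative to the 75th percentile of the gene probes of their array, and compare arrays for 1 probe, not probes with each other. The target was measured first. The signal of *SOX2* was 0.472 and 0.709 in mock knockdown and 0.212 and 0.151 in *SOX2* knockdown, a ratio of 0.307 and a log2 change of -1.69 ± 0.28 (SE, limma, adjusted p = 0.1175). The knockdown arrays both lay below the mock arrays, but *SOX2* itself did not pass the test at an adjusted p under 0.05. Between 63.5% and 68.9% of the gene probes on an array exceeded 3 in their signal-to-noise ratio (S/N), which sets a signal against its own error. The S/N of *SOX2* was 5.17 and 13.56 in mock knockdown. In *SOX2* knockdown it was 3.17 and 3.06, just over 3, so the size of its drop on the arrays is uncertain. For the protein, the study reports a western blot in which either siRNA removed SOX2 nearly completely. One label field names SW620, a colon line, in place of LN229. Of 14 colon genes looked for, 13 were on the arrays, and *KRT20*, *CDH17*, *FABP1* and *CFTR* had S/N over 3 on no array. *CDX1* passed 3 on 2 arrays, 1 of each group, and *CEACAM5*, *CEACAM6* and *GPA33* on 1 array each. The 5 measured were *CDX2*, *VIL1*, *LGALS4*, *TFF3* and *EPHB2*, at signals between 0.0135 and 0.587. Of these, *CDX2* and *LGALS4* had S/N under 3 on both knockdown arrays. Of 12 glioma line genes 11 were measured, at signals between 0.0286 (*PDGFRA*) and 41.9 (*S100B*), with *GFAP* at 0.182 to 0.317 and *NES* at 0.425 to 0.574, and *CHI3L1* was not measured. Levels of different probes cannot be compared, so this check rests on which genes passed the S/N limit. The 11 glioma line probes were mixed in direction, 6 lower and 5 higher, and their median log2 change was -0.41. Past 2-fold, all lower, were *CSPG4* (ratio 0.407), *FABP7* (0.492) and *PDGFRA*, against 2.59% of all probes compared in either direction. *PDGFRA* had an S/N over 3 on 1 of the 2 knockdown arrays. The groups did not overlap for 6 lower probes and for 3 higher ones, *EGFR* (ratio 1.48), *ANXA1* (1.18) and *CD44* (1.03). Whether these changes bear on the results that follow was not tested.

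*CDH1* was at background on all 4 arrays. E-cadherin is the adhesion protein of epithelial sheets. Its probe had deposited signals of 0.04 and 0.06 in mock knockdown and 0.05 and 0.05 in *SOX2* knockdown, on arrays whose median probe was between 1.01 and 1.02. Its S/N was 0.61 and -0.62 in mock knockdown and -2.72 and -0.59 in *SOX2* knockdown, so no fold change is given. *CDH4*, which encodes R-cadherin of retina and brain, had 3 probes, and none passed an S/N of 3 on any array, the highest being 1.66. A transcript at this level was not detectable on either side of the comparison.

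Both other cadherins were measured on all 4 arrays. *CDH2*, the N-cadherin of neural and mesenchymal cells, had signals of 2.05 and 1.91 in mock knockdown and 2.45 and 2.14 in *SOX2* knockdown. The knockdown arrays lay above the mock arrays, by a ratio of 1.16 with a 95% interval of 0.885 to 1.51 (limma, adjusted p = 0.574). *CDH11*, the cadherin of osteoblasts and other mesenchymal cells, had signals of 0.425 and 0.4485 in mock knockdown and 0.553 and 0.4535 in *SOX2* knockdown. Its ratio was 1.15 with an interval of 0.855 to 1.54 (limma, adjusted p = 0.646), and the lower knockdown array was next to the higher mock array. Neither gene passed the test. The log2 ratio of *CDH2* over *CDH11* on the same array was 2.27 and 2.09 in mock knockdown and 2.15 and 2.24 in *SOX2* knockdown, so the groups overlapped for it.

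**Figure D1:**
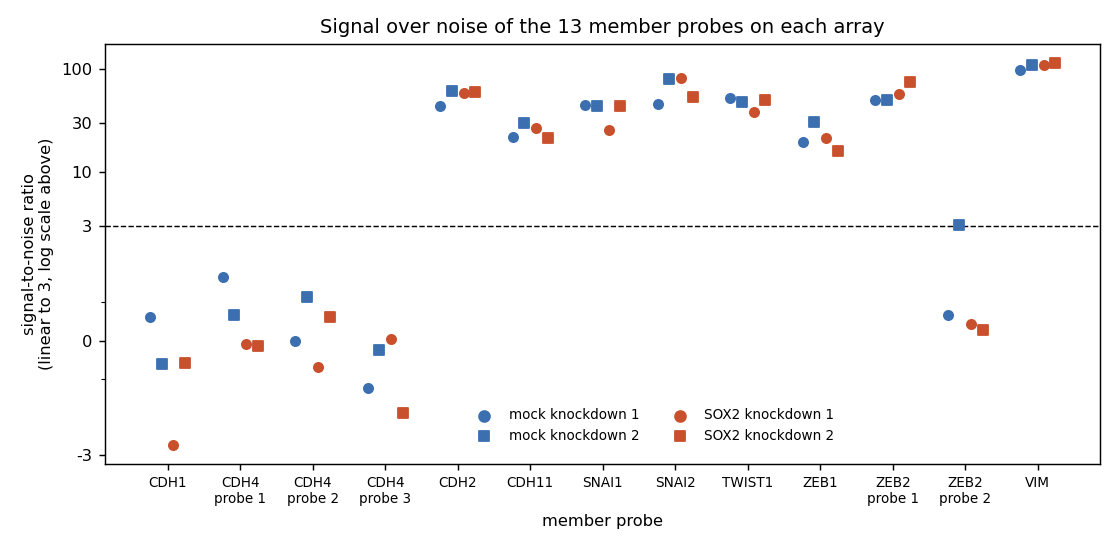
S/N (vertical axis, linear up to 3 and logarithmic above it) of each of the 13 probes (horizontal axis) on the 4 arrays, with blue for mock knockdown, orange for *SOX2* knockdown and the dashed line at 3. The *CDH1* probe and the 3 *CDH4* probes lay under 3 on all arrays and the second *ZEB2* probe passed it on 1 mock array with 3.04, while the other 8 probes lay above 15 on all arrays.

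Among the repressors, *ZEB1* had the lowest ratio. ZEB1 is a zinc-finger and homeodomain protein that represses *CDH1* and other epithelial genes. Its signal was 0.588 and 0.712 in mock knockdown and 0.485 and 0.416 in *SOX2* knockdown. The groups did not overlap, with *SOX2* knockdown lower at a ratio of 0.693, a 95% interval of 0.506 to 0.953 and a log2 change of -0.53 ± 0.17 (SE). The unadjusted p of limma was 0.032 and the p adjusted over all 21256 probes compared was 0.246, so *ZEB1* did not pass the test. Of all probes compared, 13.5% had a larger log2 change in size. The probe carries the same Celera gene ID as a probe of *SNF1LK*, a salt-inducible kinase, which had signals of 0.178 and 0.181 in mock knockdown and 0.336 and 0.364 in *SOX2* knockdown, a ratio of 1.95. When probes were averaged by gene ID, as the study's methods describe, the *ZEB1* feature had a log2 change of -0.05 (limma, adjusted p = 0.936), which mixes both genes.

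*ZEB2*, the paralog of *ZEB1* with a known part in neural crest development, had 2 probes. The first had signals of 4.13 and 4.05 in mock knockdown and 5.08 and 4.06 in *SOX2* knockdown. One knockdown array was above both mock arrays and the other lay between them, and the ratio was 1.12 with an interval of 0.818 to 1.51 (limma, adjusted p = 0.765). The second probe had S/N of 0.66 and 3.04 in mock knockdown and 0.44 and 0.27 in *SOX2* knockdown and was left out of the comparison. The log2 ratio of *ZEB1* over the first *ZEB2* probe within an array was -2.81 and -2.51 in mock knockdown and -3.39 and -3.29 in *SOX2* knockdown. This contrast of paralogs was chosen after the values were seen, and with 2 arrays against 2 its exact two-sided permutation test gives p = 0.333, the smallest it can give.

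*SNAI1* and *SNAI2* encode the paralogous repressors SNAIL and SLUG. The signal of *SNAI1* was 0.708 and 0.8765 in mock knockdown and 0.667 and 0.660 in *SOX2* knockdown. The knockdown arrays lay below the mock arrays, on average by less than the mock arrays differed, with a ratio of 0.837 and an interval of 0.625 to 1.14 (limma, adjusted p = 0.546). The signal of *SNAI2* was 0.822 and 1.02 in mock knockdown and 1.175 and 0.9475 in *SOX2* knockdown. These groups overlapped, with a ratio of 1.15 and an interval of 0.805 to 1.64 (limma, adjusted p = 0.717). The log2 ratio of *SNAI1* over *SNAI2* was -0.21 and -0.22 in mock knockdown and -0.82 and -0.52 in *SOX2* knockdown. The same limits hold for this contrast as for the ZEB pair, with an exact permutation p of 0.333.

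*TWIST1*, a bHLH factor of the cranial mesenchyme, had signals of 0.598 and 0.7265 in mock knockdown and 0.625 and 0.574 in *SOX2* knockdown. The groups overlapped, with a ratio of 0.905 and an interval of 0.674 to 1.22 (limma, adjusted p = 0.782). *VIM*, which encodes the intermediate filament of mesenchymal and glial cells, had signals of 52.1 and 59.8 in mock knockdown and 60.5 and 51.5 in *SOX2* knockdown. Its groups overlapped fully, and the ratio was 1.001 with an interval of 0.743 to 1.35 (limma, adjusted p = 0.999).

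**Figure D2:**
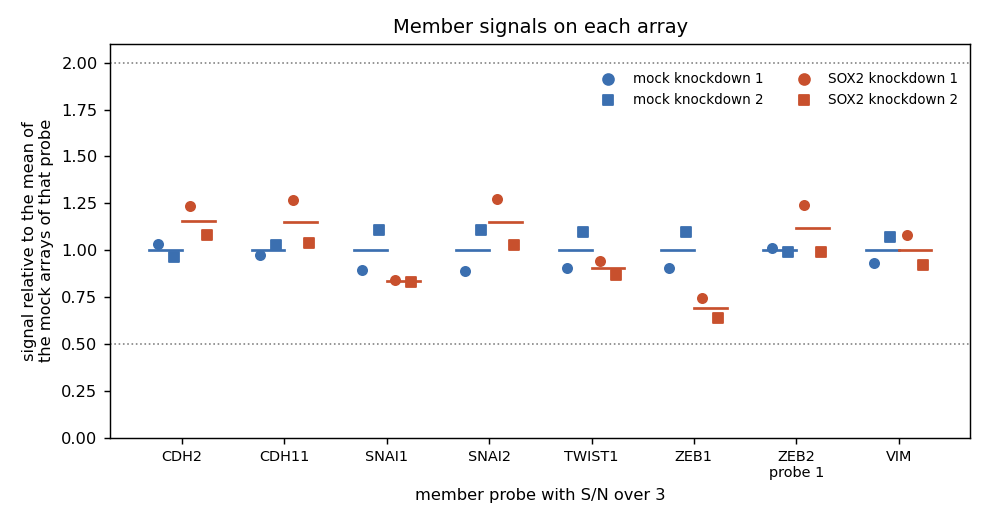
Signal of the 8 measured probes (horizontal axis) on each array relative to the mean of the mock arrays of that probe (vertical axis, linear from 0), with short bars for group means and dotted lines at ratios of 0.5 and 2. All points lie between the dotted lines, and the groups are apart for *CDH2*, *CDH11*, *SNAI1* and *ZEB1*.

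Over the 8 probes measured, 0 were past the 2-fold cutoff of the study's methods, against 2.59% of the 21256 probes compared (334 higher and 217 lower). At an adjusted p under 0.05 limma called 0 of the 8, against 0% of all probes, where the smallest adjusted p was 0.0507. At an unadjusted p under 0.05 it called 1 of the 8, *ZEB1*, against 16.8% of all probes. The groups did not overlap with *SOX2* knockdown higher for 2 of the 8, against 21.2% of all probes, and with *SOX2* knockdown lower for 2 of the 8, against 25.6%. These shares are those of small numbers and stand near the background. The median size of the log2 change was 0.20 over the 8 probes and 0.19 over all probes, and the median log2 change was 0.08 and 0.00. Between replicates, the median size of the log2 difference over all probes was 0.22 in the mock group and 0.17 in the knockdown group.

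**Figure D3:**
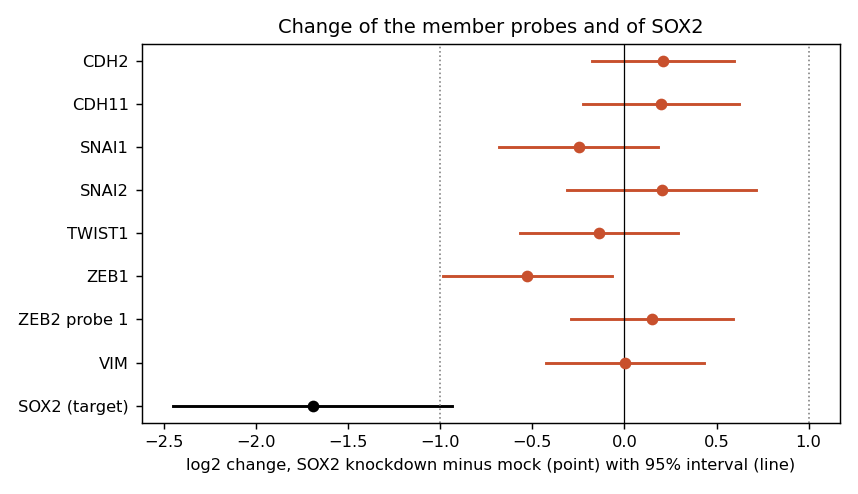
Log2 change after *SOX2* knockdown (horizontal axis, point) with its 95% limma interval (line) for the 8 measured probes and *SOX2* (vertical axis), with dotted lines at 2-fold. Each interval of the 8 probes lies inside 2-fold either way, the lowest bound being a ratio of 0.506 for *ZEB1* and the highest 1.64 for *SNAI2*, and that of *ZEB1* alone does not cross 0 among them.

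For each of the 8 probes the 95% interval lay within 2-fold in both directions, and for *ZEB1* only just. The replicates shared a pattern among themselves. For 6 of the 8 probes the second mock array was above the first and the first knockdown array above the second, which held for 39.2% of all probes. The exceptions were *CDH2* and the first *ZEB2* probe. The *CDH1* probe also shares its gene ID with a probe of another gene, *RPL23A* of the large ribosomal subunit, which had signals of 28.8 and 102.3 in mock knockdown and 45.8 and 96.8 in *SOX2* knockdown. Averaged by gene ID, the *CDH1* feature had a mean of 31.5 in mock knockdown and 34.4 in *SOX2* knockdown, a signal that the *CDH1* probe itself did not show. Of 27739 gene IDs, 658 join probes of different symbols.

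Other genes of the pathway were taken from lists by role. Of 32 further cadherins and catenin partners 31 were on the arrays with 41 probes, and 20 probes were measured. None of the 20 was past 2-fold (2.59% of all probes), 5 were at an unadjusted p under 0.05 (16.8% of all probes), and the median log2 change was -0.07. The largest in size was *CDH12*, a brain cadherin, at 0.153 and 0.147 in mock knockdown and 0.0874 and 0.0812 in *SOX2* knockdown (ratio 0.561, limma adjusted p = 0.108), while its second probe had S/N over 3 on no array. *CTNNAL1*, which encodes an alpha-catenin-like protein, was at 4.28 and 4.30 in mock knockdown and 7.15 and 6.47 in *SOX2* knockdown (ratio 1.59, limma adjusted p = 0.139). The other 3 at that unadjusted p, named after their values were seen, were the truncated GPI-anchored cadherin *CDH13* (ratio 0.680), the glial cadherin *CDH19* (0.735) and *ADAM10* (0.677), a protease that sheds cadherins from the membrane. The signal of *CTNNB1*, the beta-catenin that binds cadherin tails, had a ratio of 0.793 (limma, adjusted p = 0.456).

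Of 28 further EMT transcription factors and cofactors, 23 of 34 probes were measured, and 0 were past 2-fold (2.59% of all probes). Their median log2 change was 0.04, and 3 of the 23 were at an unadjusted p under 0.05, against 16.8% of all probes. The list joins factors that drive EMT with some that oppose it, such as *OVOL1* and *OVOL2*, so its median has no single reading. *TBX3*, a T-box repressor, was at 0.278 and 0.338 in mock knockdown and 0.613 and 0.511 in *SOX2* knockdown (ratio 1.82, limma adjusted p = 0.142), and its other probe was not measured. *ETS1* was at 0.163 and 0.1735 in mock knockdown and 0.322 and 0.249 in *SOX2* knockdown (ratio 1.70, adjusted p = 0.169). The third, named after its value was seen, was the mesenchymal homeobox gene *PRRX1* (ratio 0.611, adjusted p = 0.128). *TWIST2*, the paralog of *TWIST1*, had a ratio of 0.942.

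Among the 38 epithelial genes that E-cadherin accompanies, 37 were on the arrays with 40 probes. S/N over 3 was reached on no array by 15 of the 40, against 8593 of all 32886 gene probes used. Those 15 included *CLDN1*, *CLDN7*, *DSP*, *KRT19*, *ESRP1*, *ESRP2*, *RAB25* and *ST14*, which encode 2 claudins of tight junctions, desmoplakin, a keratin, a pair of splicing regulators, a small GTPase and a membrane serine protease. *EPCAM* passed that limit on 1 array. Of the 20 probes measured 0 were past 2-fold (2.59% of all probes), and the median log2 change was 0.00. An unadjusted p under 0.05 was reached by 4 of the 20, all lower, against 8.98% of all probes that reached it with *SOX2* knockdown lower and 7.87% that reached it with *SOX2* knockdown higher. These 4 were *ERBB3* (ratio 0.601, limma adjusted p = 0.242), 1 of 2 *CLDN4* probes (0.615), *DSG2* (0.764) and *DSC2* (0.739), the last pair being named after their values were seen. The *DSC2* probe and both *CLDN4* probes passed an S/N of 3 on 3 of the 4 arrays. The other *CLDN4* probe had a ratio of 1.33, so the probes of this claudin differed in direction. *KRT8* and *KRT18*, the paired simple-epithelial keratins, had log2 changes of 0.00 and 0.25, and a second *KRT8* probe was not measured.

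Of 34 genes listed as mesenchymal or as accompanying vimentin, 33 were on the arrays and 28 of their 37 probes were measured. The list also held the filament-related genes *NES*, *GFAP*, *DES*, *LMNA* and *PLEC*, so its counts are not those of mesenchymal genes alone. It shared *NES*, *GFAP* and *TNC* with the glioma line genes above. *FAP*, the fibroblast activation protease, was past 2-fold, at 4.40 and 4.30 in mock knockdown and 2.02 and 1.90 in *SOX2* knockdown (ratio 0.450, log2 change -1.15 ± 0.13 SE, limma adjusted p = 0.0824). It did not pass the adjusted test. *COL5A2*, a chain of the fibrillar collagen V, was at 0.108 and 0.125 in mock knockdown and 0.0753 and 0.0542 in *SOX2* knockdown (ratio 0.555, limma adjusted p = 0.175). The median log2 change of the 28 probes was -0.15. The groups were apart with *SOX2* knockdown lower for 15 of the 28 and higher for 4, against the shares of 25.6% and 21.2% given above. For the further cadherins and catenin partners they were apart and lower for 8 of 20 and higher for 2. The counts were 3 and 3 of 23 for the further EMT factors and 5 and 5 of 20 for the epithelial genes. An unadjusted p under 0.05 was reached by 6 of the 28, all lower, against 8.98% of all probes that reached it in that direction. Besides *FAP* and *COL5A2* these were, named after their values were seen, *CTGF* (ratio 0.562), *BGN* (0.615), *LUM* (0.630) and *ITGAV* (0.6345), which encode a matrix-associated growth factor, a pair of matrix proteoglycans and an integrin chain. The counts describe these probes, and the list as a whole was not tested. Fibronectin (*FN1*) passed the S/N limit on 1 array of each group and was not compared.

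**Figure D4:**
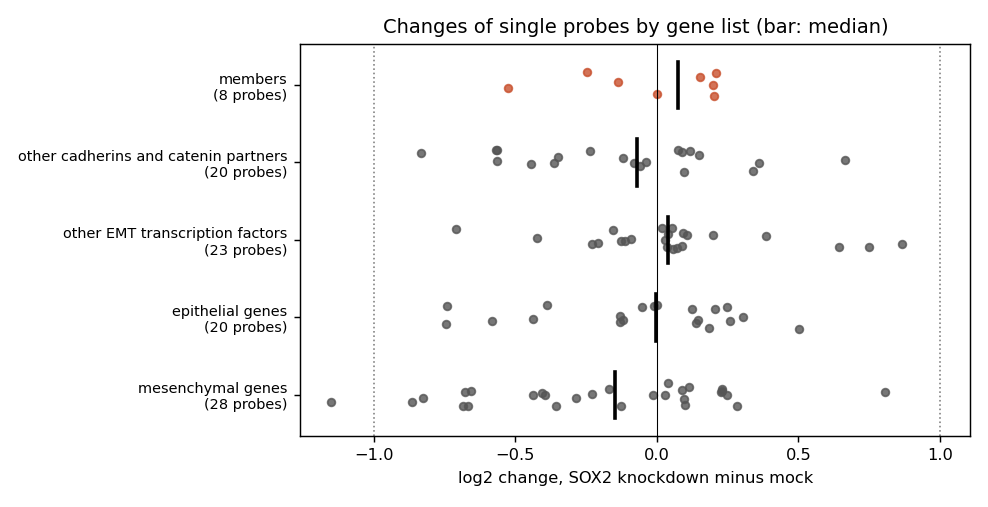
Log2 change after *SOX2* knockdown (horizontal axis) of each measured probe in the cadherin and EMT regulator set and in the 4 wider lists (vertical axis), with bars at the medians and dotted lines at 2-fold. The medians lie between -0.15 and 0.08, and *FAP* at -1.15 is the probe outside the dotted lines.

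In these bulk RNA samples, fewer cells of a kind and less RNA per cell cannot be told apart. With 2 arrays per group, the p-values rest on the spread between few samples, and an interval that includes a ratio of 1 does not show that a gene was unaltered.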

How the data were processed

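Total RNA of LN229 cells was measured on Applied Biosystems Human Genome Survey arrays, 1 sample per array. Groups were taken from the source names and replicate numbers from the titles. The deposited scanner files give normalized intensity values on a linear scale (median near 1 on each array) and an S/N score per probe, and the software version is not given in the sources used here. A second deposited table gives the ratio of each probe to its median over the 4 arrays as the authors processed it, and was used as an alternative. Gene probes were used singly, 210 whose flag reached 5000 on an array were left out, and each array was divided by its 75th percentile, which was 6.00 and 6.80 on the mock and 6.64 and 5.91 on the knockdown arrays. Values were floored at 0.01 and taken to log2. Probes were compared where S/N passed 3 on both arrays of 1 group or of both (21256 kept, 11630 dropped) with limma 3.58.1 (R 4.3.3), lmFit and eBayes without a block, two-sided, Benjamini-Hochberg adjusted over all probes kept. The 2-fold cutoff applied to linear replicate means. The fits were tested on simulated data. The members and the gene lists were chosen with earlier results of these data known, and 1 gene of the mesenchymal list is not reported here and is left out of its counts. All members, *SOX2* and, per wider list, up to 6 probes past 2-fold (or the 2 with the largest change) were named by rule, and other genes are said to be chosen later or serve as context. Scalings, floors, S/N filters, a variance trend, a replicate block, a crossed pairing, gene ID averages and leaving out each array were tried.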

Additional observations from a re-analysis of the deposited data

How the results depend on the processing

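Counts over the members were 0 past 2-fold and 0 at an adjusted p under 0.05 under every alternative run. Over all probes, the 551 past 2-fold became 219 with normexp background correction, 362 with a floor of 0.05, 1374 without the S/N filter, 300 with S/N over 3 on all 4 arrays, 2235 at a cutoff of 1.5 and 120 at a cutoff of 3, and ranged from 771 (without knockdown array 2) to 1192 (without mock array 1) when 1 array was left out. The 0 probes at an adjusted p under 0.05 (3580 at an unadjusted p) became 796 with median scaling, 776 without further scaling, 758 with the authors' table, 26 with S/N over 3 on all 4 arrays and 286 with a variance trend. In the first 3 of these limma gave all probes nearly 1 common variance (a median of 42510 total degrees of freedom against 4.53), and there *SOX2* passed, with log2 changes of -1.71, -1.72 and -1.72. Without the S/N filter 1 probe of the further cadherins, 3 of the epithelial genes and 2 of the mesenchymal genes were past 2-fold. At a cutoff of 1.5 the counts were 2 for the further cadherins, 3 for the EMT factors, 2 for the epithelial and 8 for the mesenchymal genes, and at 3 the mesenchymal count was 0. Leaving out 1 array gave ranges of 0 to 3, 0 to 1, 0 to 3 and 1 to 4 for these lists in that order, the highest counts being those without knockdown array 1 for the cadherins and mesenchymal genes, without mock array 1 for the epithelial genes and without either mock array for the EMT factors.

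The log2 change of *TWIST1* became 0.001 without mock array 2 and -0.2789 without mock array 1. That of the first *ZEB2* probe was -0.0111 without knockdown array 1 and 0.3133 without knockdown array 2. That of *VIM*, 0.00 in the comparison, was -0.0205 with median scaling, -0.0276 without further scaling, -0.0239 in the authors' table, -0.0992 without mock array 1, -0.1147 without knockdown array 1 and 0.1157 without knockdown array 2. The cause of these moves was not tested. The changes of *CDH2*, *CDH11*, *SNAI1*, *SNAI2* and *ZEB1* kept their sign under all 17 alternatives but not their size. Leaving out 1 array moved that of *CDH2* between 0.11 (without knockdown array 1) and 0.31 (without knockdown array 2), *CDH11* between 0.05 and 0.34 (the same arrays), *SNAI1* between -0.40 (without mock array 1) and -0.09 (without mock array 2) and *SNAI2* between 0.04 and 0.36 (the same arrays), and with normexp *CDH11* was at 0.00. That of the *ZEB1* probe ran from -0.66 to -0.39, both without a mock array, and was -0.05 averaged with *SNF1LK*.

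The replicate block gave 0 probes at an adjusted p under 0.05 and 1914 at an unadjusted p. The labels do not pair the samples, and deviations of same-numbered arrays correlated at -0.48 over probes, so the crossed pairing was added after seeing the data and gave 0 and 5533. Slide or scan blocks could not be run, as all barcodes differ and no scan time is given. Few arrays limit precision, and *CDH1* and *CDH4*, at background, have no fold change under any scaling.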
